A study of Bos taurus with 13 samples.

Results

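bta-miR-375 is a small regulatory RNA best known from the insulin-producing cells of the pancreas, and here it was followed in extracellular vesicles (EVs) of bovine follicular fluid. It was chosen by its name, with earlier results of these data known, and is 1 of 311 miRNAs listed in at least 1 of the 13 libraries. Each library was made from EV small RNA of pooled fluid from large follicles of female Holstein Friesian cattle, collected by ovum pick-up. Transient cows (TCs) were in negative energy balance at weeks 5 and 6 after calving and in positive balance at weeks 9 and 10. They gave 3 pools from 11 cows at the first time and 3 pools from 7 cows at the second. Always negative cows (ANCs) and always positive cows (APCs) were sampled at weeks 5 and 6 and gave 2 pools each, from 2 cows per group. Heifers, which had not calved and were in positive energy balance, gave 3 pools from 8 animals. The sources used here do not give how animals were divided among pools, or whether individual TCs contributed to both times. The p-values therefore measure the spread between pools.

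MiRNAs are loaded into a protein complex and guide it to matching sites in messenger RNAs, which are then repressed. miR-375 is abundant in pancreatic islets, where it limits insulin secretion and supports the beta cell mass, and it is also made by neuroendocrine and several epithelial cells. In the ovary it has been linked to BMPR2, a receptor for growth factors secreted by the oocyte, in bovine cumulus cells, and to the corticotropin-releasing hormone receptor and oestradiol synthesis in porcine granulosa cells. In RefSeq's annotation of the ARS-UCD2.0 assembly, MIR375 lies between CRYBA2, which encodes a lens crystallin, and CFAP65, which encodes a protein of cilia and flagella, and overlaps 0 protein-coding genes. The files were made on another assembly (UMD3.1), so these are names of neighbours only.

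The 13 libraries held between 145030 and 421435 reads on listed miRNAs, with a median of 327359. miR-375 was well counted in each of them, with 348 to 4794 reads, against a detection floor of 3 reads. In the deposited values, which the authors had normalized, this floor equals 7.91 to 18.96 CPM. CPM stands for reads of a miRNA per 1e6 miRNA reads, before such scaling. Libraries of the same group correlated at r = 0.911 to 0.984 and libraries of different groups at 0.896 to 0.97, ranges that overlap. Levels below are CPM scaled over all 13 libraries by the trimmed mean of M-values (TMM), and differences are on the log2(CPM + 5) scale.

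In the TCs at weeks 5 and 6, miR-375 stood at 11806, 13412 and 6231 CPM (replicates 1 to 3). These were 1.22%, 1.35% and 0.508% of the reads on listed miRNAs, with exact binomial 95% intervals of 1.18 to 1.26%, 1.31 to 1.39% and 0.485 to 0.532%. In the TCs at weeks 9 and 10, it stood at 3413, 5941 and 4711 CPM. Each pool of the earlier time was above each pool of the later one, although the lowest of the first group and the highest of the second were close.

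In the ANCs, the levels were 4078 and 3231 CPM. In the heifers, they were 5475, 5177 and 2631 CPM. In the APCs, they were 1297 and 14575 CPM, so that the same group held both the lowest and the highest library of the study. The APC shares were 0.106% (exact 95% interval 0.095 to 0.118%) and 1.04% (1.01 to 1.07%) of the reads. Such intervals cover counting error only, and the distance between the APC pools was far beyond it.

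**Figure D1:**
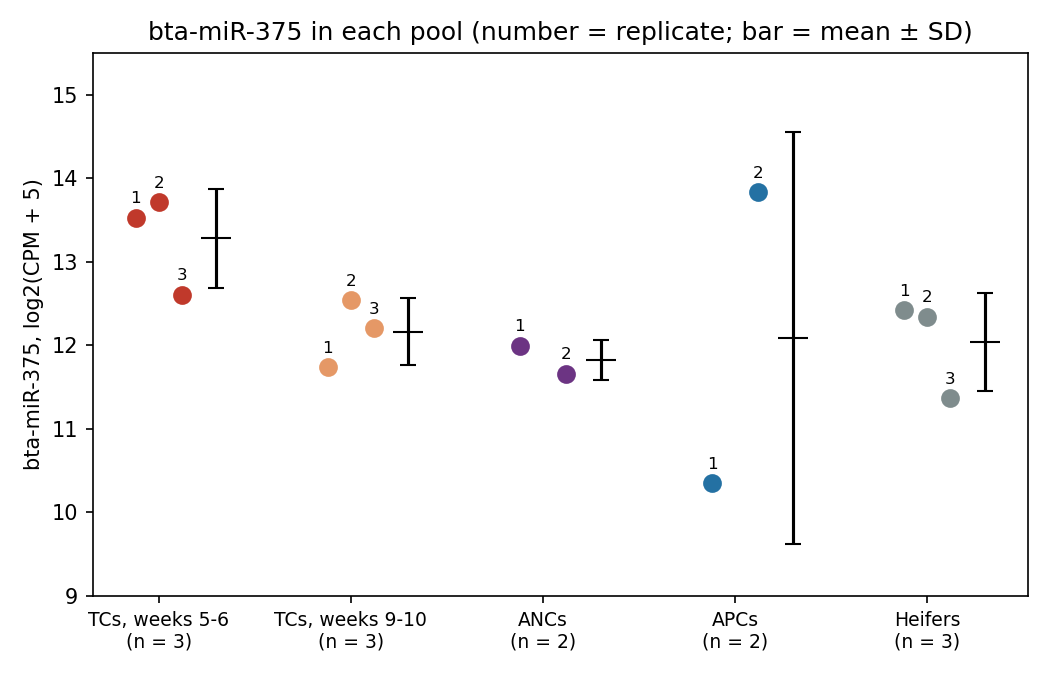
Level of bta-miR-375 in each of the 13 pools, as log2(CPM + 5), by group. Points are pools with their replicate number and the black bars give the group mean ± SD. The 3 pools of TCs at weeks 5 and 6 are above every pool of TCs at weeks 9 and 10, ANCs and heifers, and the 2 APC pools are the lowest and the highest of the study.

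By the mean of the log2 levels, the order was TCs at weeks 5 and 6 (13.28 ± 0.59, SD, n = 3), TCs at weeks 9 and 10 (12.16 ± 0.40, n = 3), APCs (12.09 ± 2.47, n = 2), heifers (12.04 ± 0.59, n = 3) and ANCs (11.83 ± 0.24, n = 2). The last 4 groups differed by less than their spread from their neighbours in this order. In CPM, the means were 10483 ± 3769, 4688 ± 1264, 7936 ± 9389, 4428 ± 1563 and 3654 ± 600 (SD) in the same order of groups. The APCs move to second place on this scale, since 1 pool sets their mean.

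miR-375 was among the more variable of the abundant miRNAs. Its highest library was 11.2 times its lowest, and the SD over 13 libraries was 0.98 on the log2 scale, exceeded by 13.4% of the 247 miRNAs that passed the filter on low counts. Among the 64 miRNAs with a mean log2 level of at least 11, 10 had a larger SD. Its nearest neighbours in median level, miR-30d and miR-30a-5p above it and miR-378 and miR-342 below it, spanned only 2.42- to 2.87-fold between their lowest and highest libraries. Of the variation of miR-375, 68.1% of the sum of squares lay within groups, and without both APC pools this fell to 33.3%. For the median miRNA, the shares were 56.0% and 59.3%.

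The comparison of TCs at weeks 5 and 6 with heifers addressed lactation together with negative energy balance. Heifers had also not calved, and these differences between the groups cannot be told apart here. miR-375 was upregulated in these cows: its level was 2.40-fold higher, a log2 difference of 1.27 (SE 0.42, 95% interval 0.28 to 2.25), with means of 10778 ± 3803 against 4496 ± 1613 CPM (SD, n = 3 each, scaled over these 6 libraries). The values of the groups did not overlap, but the lowest cow pool was close to the highest heifer pools. In limma the p was 0.019 and the adjusted p 0.24. That met the thresholds used for a differentially expressed miRNA, an absolute log2 difference of at least 1, p under 0.05 and adjusted p of at most 0.25. At these thresholds 15 of 230 miRNAs (6.52%) were called, 6 upregulated and 9 downregulated, and 50 of 230 (21.7%) had groups that did not overlap. miR-375 was 18th by p, and 9.1% of the miRNAs had a larger absolute difference. The exact two-sided permutation test gave p = 0.1, the smallest that 3 against 3 pools allow.

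Same-numbered pools of these cows and heifers deviated together across miRNAs, with correlations of 0.189 to 0.373. The log2 difference between cow and heifer pools of the same number was 1.17, 1.33 and 1.30. With the replicate number as a block, the SE fell from 0.42 to 0.14, the adjusted p of limma was 0.0268, and 34 miRNAs were called. RNA of replicates 1 was measured on a different day from that of replicates 2 and 3. The difference was 1.17 within the first day and 1.31 within the second. With the day as a covariate it stayed at 1.27, with an adjusted p of 0.357 by limma and 0 miRNAs called. The call was lost without replicate 1 of the cows (1.17, adjusted p = 0.523), replicate 3 of the cows (1.66, 0.298), replicate 1 of the heifers (1.47, 0.486), replicate 2 (1.43, 0.513) or replicate 3 (0.93, 0.246) in limma, and held without replicate 2 of the cows (1.14, 0.185). The number of miRNAs called fell from 15 to 0 without replicate 1 or 3 of the cows or replicate 1 or 2 of the heifers. It was 46 without replicate 2 of the cows and 30 without replicate 3 of the heifers. Each other call named for this comparison is thus also lost without any of the first 4 pools.

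**Figure D2:**
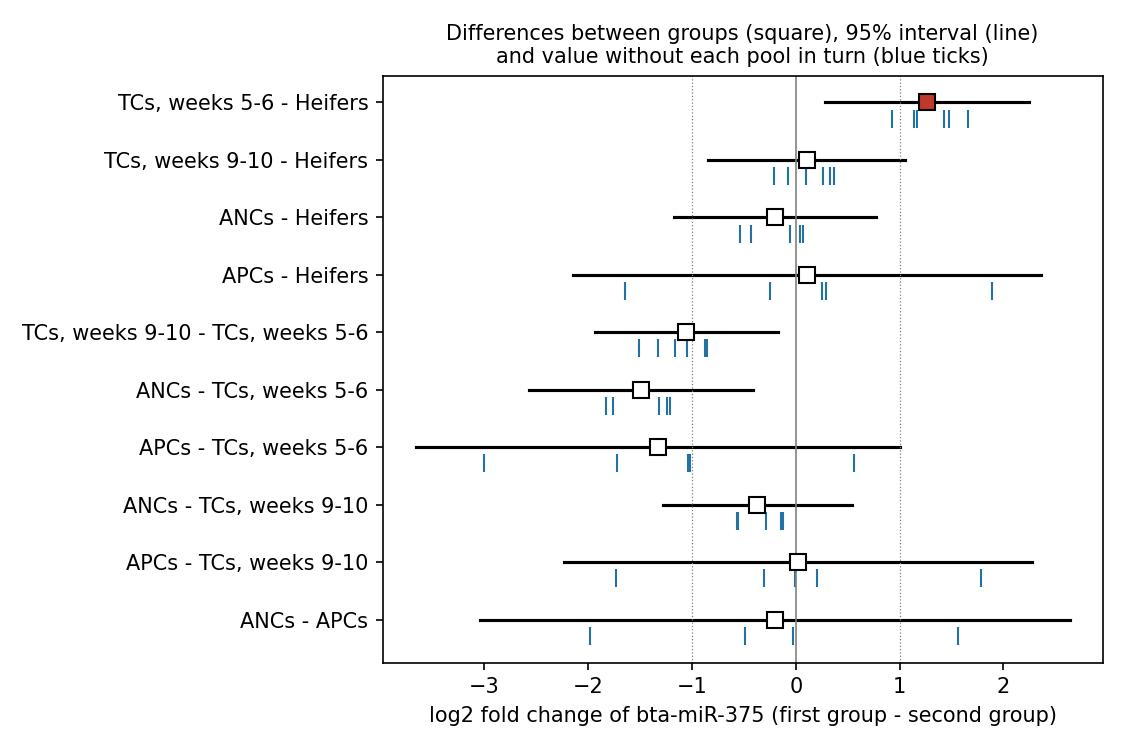
Log2 fold change of bta-miR-375 in the 10 pairs of groups (first minus second named group), with its 95% interval (line) and the value after leaving out each pool in turn (blue ticks). Dotted lines mark an absolute log2 difference of 1, and the filled square is the comparison that met the thresholds, TCs at weeks 5 and 6 against heifers at 1.27. Comparisons with APCs have the widest intervals, and the values without each of their pools are far apart.

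In TCs that had returned to positive energy balance, miR-375 was close to the level of heifers. The log2 difference from heifers was 0.11 (SE 0.41, 95% interval -0.84 to 1.05, adjusted p = 0.959 by limma), and the exact permutation test gave p = 0.8. The interval runs from 0.558- to 2.07-fold, so equal levels are not shown. With limma, 0 of 227 miRNAs (0%) were called in this comparison, with 23 at an unadjusted p under 0.05, against 0 by edgeR's quasi-likelihood test and 14 by DESeq2. Without replicate 2 of these TCs limma called 24, and without heifer replicate 3 it called 2.

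Within the TCs, the comparison of weeks 9 and 10 with weeks 5 and 6 addressed recovery from negative energy balance together with time after calving. They cannot be told apart here, nor from which cows were pooled at each time. The later pools were lower by a log2 difference of -1.06 (SE 0.39, 95% interval -1.94 to -0.17), and the groups did not overlap, as in 31 of 224 miRNAs (13.8%). Its p of 0.0241 in limma was the fifth lowest, but the adjusted p was 0.525 and it was not called. The exact permutation test gave p = 0.1, the smallest possible here. With limma 0 of 224 miRNAs were called, with 13 at an unadjusted p under 0.05. edgeR's quasi-likelihood test called 0 and DESeq2 8, including miR-375 (log2 difference -1.18, adjusted p = 0.245). Without TC replicate 2 of weeks 5 and 6, limma called 25 miRNAs, miR-375 not among them (-0.87, adjusted p = 0.387). The difference was -1.71 between the replicates 1 and -0.73 between the replicates 2 and 3.

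Among cows in negative energy balance at the same weeks, both ANC pools were below all 3 TC pools. The ANCs were lower than these TCs by a log2 difference of -1.49 (SE 0.45, 95% interval -2.57 to -0.41), and the groups did not overlap, as in 59 of 225 miRNAs (26.2%). The p in limma was 0.0137 and the adjusted p 0.402, and with 2 pools against 3 the exact permutation p was 0.2, where 0.1 is the smallest it can give. The difference was -1.55 between the replicates 1 and -1.57 between the others. Of 225 miRNAs, limma called 0, with 18 at an unadjusted p under 0.05, and edgeR's quasi-likelihood test and DESeq2 also called 0. Limma called 7 without ANC replicate 2.

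Against heifers, the ANCs differed by -0.20 (SE 0.44, 95% interval -1.18 to 0.77, adjusted p = 0.757 by limma), with overlapping values and an exact permutation p of 0.6. The difference was -0.56 with the replicate block and -0.44 with the deposited values as they stand, without a call in either. In this comparison 41 of 215 miRNAs (19.1%) were called, 14 upregulated and 27 downregulated. The count was 15 without ANC replicate 1 and 19 and 18 without heifer replicates 1 and 2. Against TCs at weeks 9 and 10, they differed by -0.37 (SE 0.39, 95% interval -1.28 to 0.54, adjusted p = 0.707 by limma), with an exact permutation p of 0.4. Of 233 miRNAs, limma called 0, with 13 at an unadjusted p under 0.05, edgeR's quasi-likelihood test 0 and DESeq2 4. Limma called 13 and 4 without ANC replicates 1 and 2, and 2 without TC replicate 3. The comparisons named so far share pools, the heifers or the TCs of 1 time, and are not independent of each other.

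The APC pools stood 11.2-fold apart, a log2 difference of 3.49 (replicate 2 minus replicate 1). Among 247 miRNAs, only miR-449a (3.59), miR-141 (3.68) and miR-34c (4.003) had a higher difference between these pools, and 5 had a larger absolute one, the other two being miR-132 (-5.75) and miR-2346 (-3.69). The median absolute difference was 0.64. Over all miRNAs, the APC pools correlated at 0.936, within the range of the other groups. In the remaining groups, the highest pool of miR-375 exceeded the lowest by 1.26- to 2.15-fold.

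**Figure D3:**
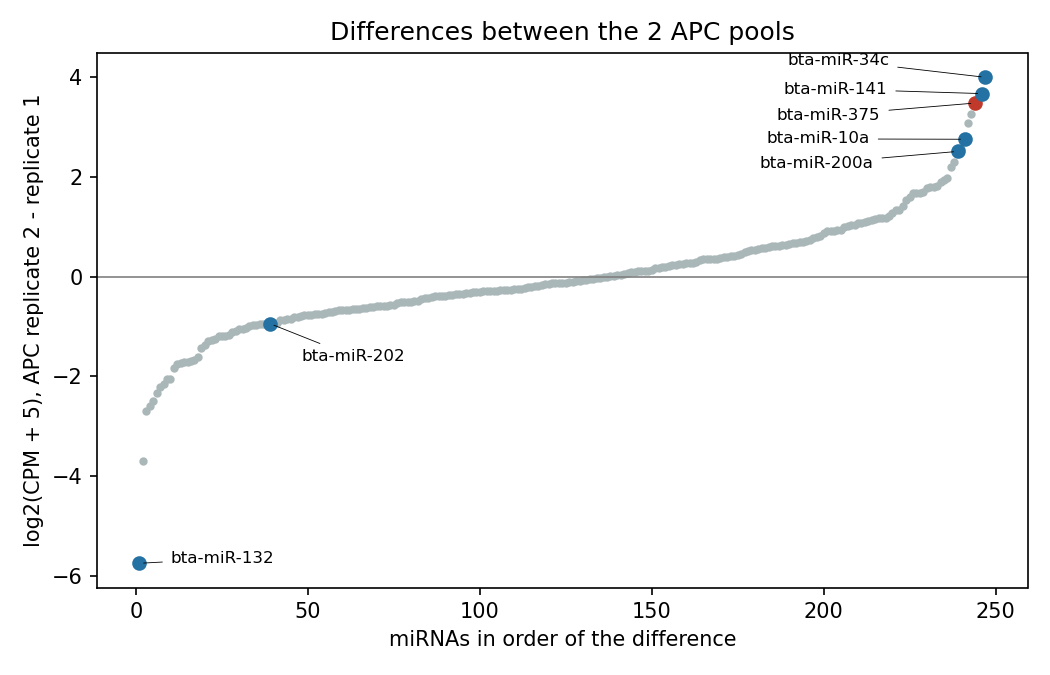
Difference in log2(CPM + 5) between the 2 APC pools (replicate 2 minus replicate 1) for 247 miRNAs in rising order. bta-miR-375, in red, is close to the top at 3.49. Of the marked miRNAs, bta-miR-34c (4.003) and bta-miR-141 (3.68) are above it. bta-miR-10a (2.76) and bta-miR-200a (2.52) are below it, as is the unmarked liver bta-miR-122 (3.09). bta-miR-132 is at the other end at -5.75. The epithelial miRNAs do not move as 1 set: bta-miR-183 is at 1.13, bta-miR-205 at 0.69 and bta-miR-184 at -2.06.

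All comparisons with APCs rested on this pair. Against heifers, the difference was 0.11 (SE 0.95, 95% interval -2.15 to 2.37, adjusted p = 0.95 by limma, exact permutation p = 1). It was 1.89 without APC replicate 1 (adjusted p = 0.115 by limma) and -1.64 without replicate 2 (0.167), each past the thresholds, in opposite directions. Against TCs at weeks 9 and 10, it was 0.02 (SE 0.94, 95% interval -2.24 to 2.27, adjusted p = 0.99 by limma, exact permutation p = 1), and 1.78 or -1.73 without APC replicate 1 or 2 (adjusted p = 0.0797 and 0.136 by limma). Of 233 miRNAs, 29 (12.4%) were called against heifers, and of 229 miRNAs, 22 (9.61%) against these TCs. The first count was 50 and 47 without APC replicates 1 and 2, and 5 and 47 without heifer replicates 1 and 3. The second was 41 without APC replicate 1 and 0 without TC replicate 3. Where 1 pool was left, it was assumed to vary like the other group. The count models gave larger differences than limma, 0.91 (edgeR) and 0.88 (DESeq2) against heifers and 0.84 and 0.85 against these TCs, without a call.

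Against TCs at weeks 5 and 6, the APCs differed by -1.33 (SE 0.98, 95% interval -3.66 to 1.01, adjusted p = 0.992 by limma, exact permutation p = 0.6), and by 0.56 or -3.002 without APC replicate 1 or 2. By edgeR and DESeq2 this difference was -0.57 and -0.41, without a call. Of 225 miRNAs, limma called 0, with 6 at an unadjusted p under 0.05, edgeR's quasi-likelihood test 0 and DESeq2 1. Limma called 1 without APC replicate 2. The ANCs differed from the APCs by -0.20 (SE 1.14, 95% interval -3.04 to 2.64, adjusted p = 0.971 by limma), and by -1.98 (called, 0.146) or 1.56 (not called, 0.548) without APC replicate 1 or 2. By edgeR and DESeq2 it was -1.06 and -1.13, without a call. The exact permutation p was 1, where 2 against 2 pools cannot go below 0.333. Of 207 miRNAs, limma called 0, with 16 at an unadjusted p under 0.05, edgeR's quasi-likelihood test 0 and DESeq2 6. Limma called 24 and 4 without APC replicates 1 and 2, and 22 without ANC replicate 2.

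Pooled over groups, no difference passed the test. The 10 pools of cows differed from the heifers by 0.35 (SE 0.59, 95% interval -0.91 to 1.61, adjusted p = 0.745 by limma), with an exact permutation p of 0.605, and 14 of 239 miRNAs (5.86%) were called. The count was 4 and 0 without heifer replicates 1 and 2, and 8 without TC replicate 1 of weeks 5 and 6 or without ANC replicate 2. The difference was 0.61 by edgeR and 0.64 by DESeq2, without a call. The 5 cow pools in negative energy balance differed from the 5 in positive balance by 0.57 (SE 0.59, 95% interval -0.71 to 1.86, adjusted p = 0.995 by limma), with an exact permutation p of 0.468. Of 221 miRNAs, limma called 0, with 4 at an unadjusted p under 0.05, edgeR's quasi-likelihood test 0 and DESeq2 2. Limma called 2 without TC replicate 3 of weeks 5 and 6.

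Whether the negative-minus-positive difference in the TCs (early minus late) departed from that between the constant groups (ANCs minus APCs) was tested as an interaction. In the TCs this difference also spans time after calving, while ANCs and APCs were sampled at the same weeks. The difference in the TCs minus that between the constant groups was 1.42 (SE 1.20, 95% interval -1.26 to 4.10, adjusted p = 0.561 by limma). This value became 3.17 (called, 0.207) or -0.44 (not called, 0.883) without APC replicate 1 or 2. Of 241 miRNAs, limma called 0, with 40 at an unadjusted p under 0.05. edgeR's quasi-likelihood test called 26 and DESeq2 42, including miR-375 at 2.31 (adjusted p = 0.245), while edgeR gave it 2.35 without a call. Limma called 51 without APC replicate 1, 42 without ANC replicate 2, and 26 and 15 without replicate 2 of the TCs at the earlier and the later time.

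Over the 13 libraries, the miRNAs with the pattern most like that of miR-375 were miR-10a (Pearson r = 0.793, Spearman rho = 0.742), which is encoded in a HOX cluster, miR-141 (0.781 and 0.643) and miR-200a (0.776 and 0.687), both of the epithelial miR-200 family, miR-2285t (0.761 and 0.857), a miRNA of the ruminant lineage, and miR-126-5p (0.757 and 0.676), whose gene is active in endothelium. The median r over 246 miRNAs was -0.07. These correlations are descriptions over libraries that share their depth and scaling. The APC pools carry part of them: without both, r was 0.672, 0.652, 0.695, 0.585 and 0.672 in the same order. In APC replicate 2, these miRNAs were 6.81, 12.99, 5.73, 12.01 and 2.45 times as high as in replicate 1. miR-2285t had as few as 4 reads in a library, so its values are the least certain.

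For deviations from the group means, the highest correlations were those of miR-10a (0.876), miR-1388-3p (0.86), miR-200a (0.834), miR-141 (0.814) and miR-148a (0.81). Hence miR-10a, miR-141 and miR-200a were among the 5 most alike by both of these measures. The ranking changed with the measure: of the 5 highest by r over 13 libraries, 2 were among the 5 highest by rho and 2 among the 5 highest by r without the APC pools. By rho, the highest were miR-2285t (0.857), miR-221 (0.802), miR-145 (0.786), miR-378c (0.747) and miR-10a (0.742). The most opposed miRNAs over the 13 libraries were miR-421 (r = -0.733), miR-202 (-0.718), which is typical of the gonads, and let-7i (-0.667). miR-202 had its highest levels, 6663 and 8729 CPM, in the ANC pools, and its lowest, 2983 CPM, in APC replicate 2, where miR-375 was highest.

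**Figure D4:**
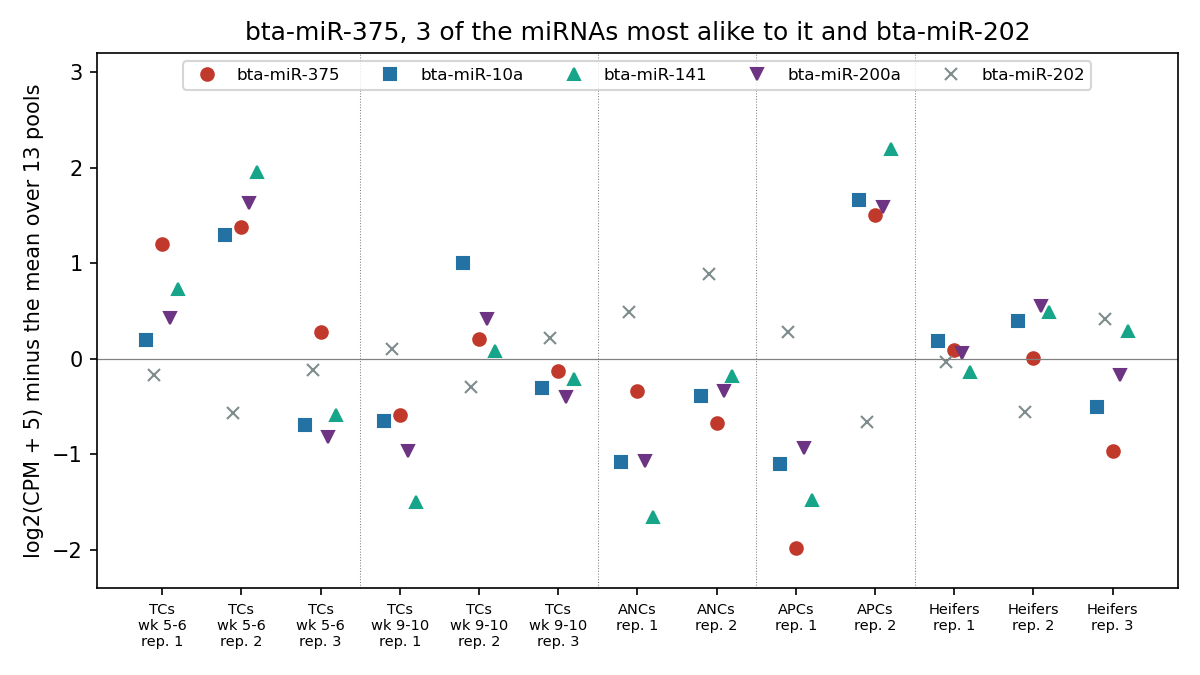
Levels of bta-miR-375, bta-miR-10a, bta-miR-141, bta-miR-200a and bta-miR-202 in each pool as log2(CPM + 5), each relative to its own mean over the 13 pools. Dotted lines separate the groups. bta-miR-375, bta-miR-10a, bta-miR-141 and bta-miR-200a share their high values in TC replicate 2 at weeks 5 and 6 and in APC replicate 2, while bta-miR-202 lies below its mean in both.

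The epithelial miRNAs most like miR-375 were not called beside it. In TCs at weeks 5 and 6 against heifers, miR-200a differed by 0.29 (SE 0.60, adjusted p = 0.82 by limma) and miR-141 by 0.51 (SE 0.61, 0.661). Of the 9 epithelial miRNAs tested, 0 were upregulated and 1 was downregulated, miR-183 (log2 difference -1.70, adjusted p = 0.24 by limma), beside 15 of 230 called over all miRNAs (6.52%). Their median was -0.61 against 0.01 over all miRNAs. Their summed level was 6355 to 32866 CPM in these cows and 17078 to 25655 CPM in heifers. In ANCs against heifers, 7 of 9 epithelial miRNAs were downregulated, where 41 of 215 miRNAs (19.1%) were called in all, 27 of them downregulated. The epithelial median was -1.59, beside the difference of -0.20 for miR-375. The difference between miR-375 and these miRNAs was not itself tested.

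Of 14 tested miRNAs linked to insulin and the islet, 2 were upregulated in TCs at weeks 5 and 6 against heifers and 1 was downregulated. Over all miRNAs, 6.52% were called. The median of the list was 0.57 against 0.01 over all miRNAs. Its member miR-184 went the other way (-3.80, adjusted p = 0.255 by limma) and was not called. The upregulated ones were miR-24-3p (log2 difference 1.03) and miR-26a (1.02), each with an adjusted p of 0.24 by limma. miR-204, which acts on insulin transcription, was downregulated (-1.62, adjusted p = 0.148 by limma), from 126 to 141 CPM in heifers to 36.4 to 47.3 CPM in these cows.

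The median of 19 tested miRNAs of granulosa cells and steroid synthesis was 0.16 against 0.01 over all miRNAs. In TCs at weeks 5 and 6 against heifers, 1 of them was called, a share near the 6.52% of all miRNAs called. This was miR-145 (log2 difference 1.18, adjusted p = 0.148 by limma). miR-145, which is also abundant in smooth muscle, stood at 2639, 2059 and 2843 CPM in these cows and at 1067, 1180 and 1104 CPM in heifers. Its groups did not overlap, as in 50 of 230 miRNAs (21.7%). In the comparisons of these TCs with the later TCs and with the ANCs, limma called 0 of 224 and 0 of 225 miRNAs. The lists therefore had 0 members called there, which says nothing about the lists themselves.

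Among the leukocyte, liver, erythroid and gonad markers, only leukocyte miRNAs were called between TCs at weeks 5 and 6 and heifers. Of 5 tested leukocyte miRNAs, 2 were downregulated in the cows, where 6.52% of all miRNAs were called and 9 of 230 were downregulated. These were miR-155 (-1.59, adjusted p = 0.218 by limma) and miR-223 (-1.76, 0.148). The summed leukocyte level was 2693 to 3012 CPM in the cows and 4798 to 5743 CPM in heifers. The liver miRNA miR-122 was at 4106 to 5618 CPM against 5337 to 17371 CPM (log2 difference -1.10, adjusted p = 0.261 by limma). The erythroid miRNAs summed to 732 to 5491 CPM against 1707 to 3902 CPM, with 0 of 2 called, and their marker miR-451 was at 36.7 to 142 CPM against 121 to 365 CPM. In these pools, miR-451 was above 0 throughout. miR-202, the gonad marker, was at 3201 to 4353 CPM in the cows and 3223 to 6326 CPM in heifers, which overlap.

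The ciliated cell miRNAs summed to 9280 CPM in TC replicate 2 at weeks 5 and 6, 1176 CPM in APC replicate 2 and 589.4 CPM in heifer replicate 3, and to between 40.1 and 360 CPM in the other pools. Both of the first 2 are pools in which miR-375 was highest, but TC replicate 1, with 160 CPM of these miRNAs, had nearly as much miR-375. miR-449a was at 0 reads in 3 libraries, ANC replicate 1 and heifer replicates 1 and 2. The part of leukocyte, liver, epithelial, erythroid and ciliated cell RNA in the result for miR-375 was not tested. In such bulk vesicle RNA, fewer vesicles from a cell type and less miRNA per vesicle cannot be told apart.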

How the data were processed

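The deposited values are TMM-normalized CPM per miRNA, a signal that the authors computed with edgeR after trimming with Cutadapt 1.11 and aligning with Bowtie2 2.2.2 to UMD3.1, per the labels and the study's methods. Libraries were made with the QIAseq miRNA kit from EVs isolated by ultracentrifugation. Each library's values are multiples of what 1 read is worth, so reads were recovered (3681 of 3681 values whole within 0.1 reads). For each comparison, miRNAs listed for both groups were filtered with edgeR's filterByExpr (minimum count 10, minimum total 15), scaled by TMM and tested by limma with a trend on log2(CPM + 5), with Benjamini-Hochberg adjustment over all tested miRNAs. R 4.3.3, limma 3.58.1, edgeR 4.0.16 and DESeq2 1.42.0 were used. The script was tested on simulated data.

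Depth was 145030 to 421435 reads per library, and no pair of libraries of a group agreed within counting noise. The replicate numbers come from the labels. Same-numbered pools of TCs at weeks 5 and 6 and heifers deviated together (correlations 0.189 to 0.373 for 3 pairs, each above 0.1). The other comparisons of 3 pairs did not meet this condition, and the rest share only 2 numbers. The alternatives were other pseudocounts, scalings, filters and tools, a replicate block, 1 fit of all libraries and leaving out each pool. The day of RNA measurement was added as a covariate after the data were seen, for comparisons without APCs, since that of APC replicate 2 is not known.

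miR-375 and the lists of miRNAs were chosen with earlier results of these data known. Besides miR-375, the text names the 2 nearest miRNAs above and below it in median level, the 5 with the highest and 3 with the lowest correlation over libraries, the 5 with the highest correlation of deviations from group means, and list members called where miR-375 was called. miRNAs sharing its seed were not analysed here. Other miRNAs, those with the largest APC differences and the markers of cell types, were named after their values were seen.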

Additional observations from a re-analysis of the deposited data

How the results depend on the processing

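The upregulation in TCs at weeks 5 and 6 against heifers kept its direction in 17 of 17 alternatives, with adjusted p from 0.0268 to 0.523, and was called in 7. This direction was close to fixed, since the groups did not overlap and every alternative drew on the same pools. The difference was 1.02 to 1.31 in the 11 alternatives that kept all pools. In limma it was not called with a pseudocount of 1 (1.27, adjusted p = 0.252), with no filter (1.23, 0.282), with total-count scaling (1.02, 0.314), with 1 fit of all 13 libraries (1.24, 0.447) or with the day as a covariate (1.27, 0.357). With 15 miRNAs called, the count was 4 with a pseudocount of 1, 26 with total-count scaling, 36 by DESeq2, 34 with the block and 0 with the day. Causes were not tested. The change within TCs was called by DESeq2 (-1.18), as was the interaction (2.31).

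APCs against heifers turned negative with total-count scaling (-0.48), the deposited values as they stand (-0.25) and the replicate block (-0.21). APCs against TCs at weeks 9 and 10 turned negative with no filter (-0.029), total-count scaling (-0.60), DESeq2's size factors (-0.026), the deposited values (-0.40) and 1 fit of all libraries (-0.071). ANCs against APCs turned positive with total-count scaling (0.22).

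Leaving out each pool gave 0.93 to 1.66 for TCs at weeks 5 and 6 against heifers, -0.21 to 0.37 for TCs at weeks 9 and 10 against heifers, -0.53 to 0.074 for ANCs and -1.64 to 1.89 for APCs against heifers, -1.51 to -0.85 within TCs, -1.83 to -1.22 for ANCs and -3.002 to 0.56 for APCs against TCs at weeks 5 and 6, -0.56 to -0.12 for ANCs and -1.73 to 1.78 for APCs against TCs at weeks 9 and 10, and -1.98 to 1.56 for ANCs against APCs. It gave 0.03 to 0.61 for all cows against heifers, 0.08 to 0.96 for negative against positive balance and -0.44 to 3.17 for the interaction.

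With the replicate block, no call of miR-375 changed. Counts of called miRNAs went from 0 to 3 for TCs at weeks 9 and 10 against heifers, from 41 to 64 for ANCs against heifers, from 0 to 24 for ANCs against TCs at weeks 9 and 10, and from 0 to 51 for the interaction. ANCs and TCs at weeks 9 and 10 correlated at 0.405 to 0.503 but share only 2 numbers, and the others did not meet the condition for pairs. Other counts that moved by more than 1.5 times with all pools kept were, for TCs at weeks 9 and 10 against heifers, 6 with total-count scaling, 5 with 1 fit of all libraries and 2 with the day; for APCs against heifers (29), 63 with total-count scaling and 49 with the deposited values; for APCs against TCs at weeks 9 and 10 (22), 43 and 36; for ANCs against TCs at weeks 9 and 10 (0), 2 with total-count scaling and 6 with the day; for negative against positive balance (0), 1 with 1 fit of all libraries; and for the interaction (0), 55 with total-count scaling and 39 with 1 fit of all libraries. miR-375 had at least 348 reads in each library. Counts that moved without 1 pool stand with each comparison.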

Other observations

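Ratios of reads within a library do not depend on scaling. The ratio of miR-375 to miR-200a, chosen after the correlations were seen, was 1.90, 0.934 and 2.37 in TCs at weeks 5 and 6 and 1.13, 0.758 and 0.638 in heifers. In the TCs at weeks 9 and 10 it was 1.43, 0.959 and 1.34, in the ANCs 1.84 and 0.877, and in the APCs 0.533 and 1.05. For miR-10a, the ratio was 4.95, 2.62 and 4.83 in TCs at weeks 5 and 6 and 2.30, 1.88 and 1.80 in heifers. These groups did not overlap, as in 50 of 230 single miRNAs (21.7%). The share among ratios was not computed. The ratio to miR-10a was 2.57, 1.43 and 2.80 in TCs at weeks 9 and 10, 4.15 and 2.03 in the ANCs and 1.34 and 2.21 in the APCs. The first 2 of these groups overlap with the TCs at weeks 5 and 6. For miR-141, the ratio was 8.66, 4.21 and 11.5 in TCs at weeks 5 and 6 and 7.35, 4.51 and 2.63 in heifers, which overlap. It was 11.9, 6.88 and 6.68 in TCs at weeks 9 and 10, 15.9 and 4.48 in the ANCs and 4.46 and 3.86 in the APCs. All of these ratios were chosen after the correlations were seen, are given as values and were not tested.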
